A study of Mus musculus with 13 samples.

Results

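The acute phase proteins examined here were Saa1, Saa2, Saa3, Saa4, Orm1, Orm2, Hp, Lcn2, Crp and Il1rn, 10 of the 27141 genes in the count and FPKM tables, taken by gene symbol. RNA was sequenced from damaged hepatocytes (dHeps), the cells isolated by collagenase perfusion from livers of CCl4-injured mice, whose genotype is labelled WT and whose background the study's methods give as C57BL/6. All 13 libraries came from day 16 of culture in serum-free Hepatocyte Maintenance Medium and fell into 7 groups. DMSO cultures received the solvent, and 5C cultures received all 5 compounds. These were GSK429286A (G), which inhibits the kinase ROCK, CID755673 (C), which inhibits protein kinase D, ETC-1002 (E), which activates AMPK, forskolin (F), which activates adenylate cyclase, and the plant glycoside Salidroside (S). The 5C-G, 5C-C, 5C-E, 5C-F and 5C-S cultures each received 4 of the compounds, with the one after the hyphen left out. There were 2 libraries per group (called A and B in column order, letters that pair nothing across groups) and 1 library for 5C-S. The study describes this perfusion as an isolation that enriches hepatocyte-derived cells. Its evidence was a hepatocyte lineage label that, at best, a large majority of cells carried in traced CCl4-injured mice. The filtered suspension was then plated, and the study names no sort or depletion of other liver cells for these cultures. The methods call replicates separate biological ones without saying whether that means mice or cultures, so the p-values measure the spread between these libraries.

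Acute phase proteins are plasma proteins that the liver makes in larger amounts after injury or infection. Interleukin 6 and its relatives act on hepatocytes through gp130 (Il6st) and STAT3, interleukin 1 and tumour necrosis factor act through NF-kB, and the C/EBP beta and C/EBP delta factors join both arms at the promoters. Serum amyloid A proteins ride on high-density lipoprotein, orosomucoids bind drugs and lipids, haptoglobin (Hp) captures free haemoglobin, lipocalin 2 (Lcn2) withholds siderophore-bound iron from bacteria, C-reactive protein (Crp) is a pentraxin that reacts only weakly in the mouse, and Il1rn encodes the antagonist that blocks the interleukin 1 receptor.

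Total counts ran from 30195867 to 45491932 per library, and all 10 genes passed the low-count filter, Saa2 only through the groups in which it was higher. Hepatocyte identity of the cultures was checked on 8 markers, whose summed FPKM (fragments per kilobase of transcript, scaled to the reads of the library) ran from 3174 in a 5C-E library to 21660 in a 5C-F library. Markers of macrophages were present beside them. Their 10 genes summed to 3183 and 3164 FPKM in DMSO, 391 and 426 in 5C, 3575 and 5047 in 5C-G, 834 and 1329 in 5C-C, 561 and 643 in 5C-E, 1146 and 1398 in 5C-F and 475 in 5C-S. Of the markers of resident liver macrophages among them, Clec4f stayed between 0 and 0.784, whereas Cd5l was at 45.8 and 50.6 in DMSO, 6.03 and 7.13 in 5C and 115 and 158 in 5C-G, and Marco at 17.1 and 15.9, 1.52 and 1.27, and 21.7 and 36.7. Of 8 neutrophil markers, Ly6g and Ngp were at 0 in most libraries, and the sum of all 8 did not exceed 5.13 FPKM. In bulk RNA, fewer cells of a type and less RNA per cell cannot be told apart.

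The SAA genes form a cluster on chromosome 7 of GRCm39, with Saa3 at chr7:46361422-46365576, Saa4 at chr7:46377406-46382035 and Saa1 at chr7:46389916-46392547 on the minus strand and Saa2 at chr7:46401214-46403737 on the plus strand. Orm1 (chr4:63261052-63272189) and Orm2 (chr4:63280686-63284115) are neighbours on the plus strand of chromosome 4. All 10 are protein-coding genes. RefSeq promoter windows (build GRCm38.p6) were matched for 8 of the 10 members, and the 250 bases before the start were searched on both strands for the STAT letters TTCNNNGAA, the C/EBP letters TTGCNNAA and a 10-letter NF-kB consensus. The C/EBP letters were found in the windows of 6 of these 8 genes (Saa1, Saa2, Saa3, Saa4, Orm2 and Lcn2), against 9.57% of all 32817 windows. Members are counted per gene, of which Il1rn had 3 windows, and the share is per window. The windows of Saa1 and Saa2 are closely alike, so the 6 genes are not separate draws. The STAT letters and the NF-kB consensus, found in 7.01% and 7.25% of all windows, were in none of the members' windows. These are matches of letters, and binding was not measured. The windows of Saa1, Saa2, Saa3, Orm2 and Lcn2 are shown as examples that hold a C/EBP match. That of Saa4, which held 2 matches, is not shown, and those of Crp and Il1rn held none. The windows shown are written 5′ to 3′ on the gene's strand, with the C/EBP match in capitals.
Saa1 promoter (chr7:46742981-46743230, minus strand): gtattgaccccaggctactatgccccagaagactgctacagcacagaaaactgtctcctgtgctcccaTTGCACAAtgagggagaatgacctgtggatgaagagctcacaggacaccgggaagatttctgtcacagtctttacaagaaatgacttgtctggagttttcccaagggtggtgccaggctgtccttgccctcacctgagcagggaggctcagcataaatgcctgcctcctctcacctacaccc
Saa2 promoter (chr7:46751583-46751832, plus strand): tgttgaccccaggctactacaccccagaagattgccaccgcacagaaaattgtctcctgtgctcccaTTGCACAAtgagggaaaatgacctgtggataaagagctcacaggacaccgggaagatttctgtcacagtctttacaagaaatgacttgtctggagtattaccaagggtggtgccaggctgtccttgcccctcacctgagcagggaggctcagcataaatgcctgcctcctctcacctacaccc
Saa3 promoter (chr7:46715677-46715926, minus strand): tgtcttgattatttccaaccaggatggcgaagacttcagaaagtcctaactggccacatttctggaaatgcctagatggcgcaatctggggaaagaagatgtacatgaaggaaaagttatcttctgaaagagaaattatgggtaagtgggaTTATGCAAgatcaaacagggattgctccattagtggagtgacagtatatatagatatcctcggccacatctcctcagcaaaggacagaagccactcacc
Orm2 promoter (chr4:63362199-63362448, plus strand): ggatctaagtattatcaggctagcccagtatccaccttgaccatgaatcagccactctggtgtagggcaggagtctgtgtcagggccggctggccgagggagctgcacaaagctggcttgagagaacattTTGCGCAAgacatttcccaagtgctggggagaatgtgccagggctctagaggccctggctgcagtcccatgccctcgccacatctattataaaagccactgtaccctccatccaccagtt
Lcn2 promoter (chr2:32387740-32387989, minus strand): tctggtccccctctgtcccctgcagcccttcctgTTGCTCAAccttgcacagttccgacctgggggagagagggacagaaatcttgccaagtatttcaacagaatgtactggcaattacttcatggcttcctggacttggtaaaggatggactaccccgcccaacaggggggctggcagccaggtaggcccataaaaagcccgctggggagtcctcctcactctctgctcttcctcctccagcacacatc
The match began 182 bases before the start in Saa1, 183 in Saa2, 99 in Saa3, 120 in Orm2 and 216 in Lcn2. In Saa3 it lay on the other strand.

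Saa1 and Saa2, and Orm1 and Orm2, are close enough in sequence for reads to fit more than 1 gene. Over the coding sequence of the canonical GENCODE transcripts, read from GRCm39, Saa1 and Saa2 were identical at 95.1% of 366 positions and Orm1 and Orm2 at 89.9% of 621, while Saa1 and Saa3 shared 75.9% of 374 aligned columns. The first 150 coding bases of each pair are given to show how far apart the distinguishing bases (in capitals) lie, 11 of them in the SAA pair and 13 in the ORM pair.
Saa1 coding start: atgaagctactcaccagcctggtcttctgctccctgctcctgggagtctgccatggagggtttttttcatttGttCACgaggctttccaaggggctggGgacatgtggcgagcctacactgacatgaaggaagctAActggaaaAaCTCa
Saa2 coding start: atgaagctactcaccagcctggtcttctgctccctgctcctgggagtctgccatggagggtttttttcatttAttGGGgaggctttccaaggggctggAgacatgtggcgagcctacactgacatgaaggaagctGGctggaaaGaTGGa
Orm1 coding start: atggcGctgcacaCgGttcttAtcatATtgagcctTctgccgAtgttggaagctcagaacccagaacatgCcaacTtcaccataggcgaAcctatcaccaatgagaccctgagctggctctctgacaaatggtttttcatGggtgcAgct
Orm2 coding start: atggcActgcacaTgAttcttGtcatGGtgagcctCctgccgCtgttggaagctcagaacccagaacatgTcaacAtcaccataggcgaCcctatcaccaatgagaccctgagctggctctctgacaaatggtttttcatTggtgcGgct
How multiply mapped reads and strand were handled is not given in the sources used here, so the split between members of a pair is uncertain, as is the level of Saa1, Saa2, Orm1 and Crp where other gene models overlap them.

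A member was called when the edgeR quasi-likelihood test gave an adjusted p under 0.05 over all 19884 genes tested and the log2 fold change went beyond 1 in either direction. The 10 members were selected on earlier expression results from these same libraries, with no single contrast or threshold recorded, so their differences are descriptions: the p-values set each one against the spread between libraries and are not independent evidence for the group of genes. Between 5C and DMSO, 4 of 10 members were called (3 higher, 1 lower), and 4.55% of all genes were called (1.66% higher, 2.89% lower). Against 5C, removal of G called 6 members (3 higher, 3 lower) where 13.1% of all genes were called (7.47% higher, 5.64% lower), and removal of C called 4, all higher, where 20.2% were called (9.65% higher, 10.5% lower). Removal of E called 2, both lower, where 1.96% of all genes were called (0.654% higher, 1.31% lower), and removal of F called none where 4.84% were called (2.69% higher, 2.15% lower). Without 1 of the libraries compared, the count was 3 to 5 for removal of G, 3 to 5 for C and 0 to 1 for E, and in limma on log2(FPKM + 1) it was 2 for G and 0 for E. At an unadjusted p under 0.05 with a log2 fold change beyond 1, Saa3 (1.18) and Orm2 (-1.08) differed between 5C-F and 5C, as did 1672 of all 19884 genes. Hp (0.61), Lcn2 (0.74) and Il1rn (0.99) had such a p with a change under 1. DESeq2 called 1 member, Il1rn. The median log2 fold change of the 9 members other than Saa2 was 0.77 in 5C against DMSO. Against 5C it was -0.32 for removal of G, 0.88 for C, -0.29 for E and 0.48 for F, and the medians over all genes tested lay between -0.01 and 0.01.

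**Figure D1:**
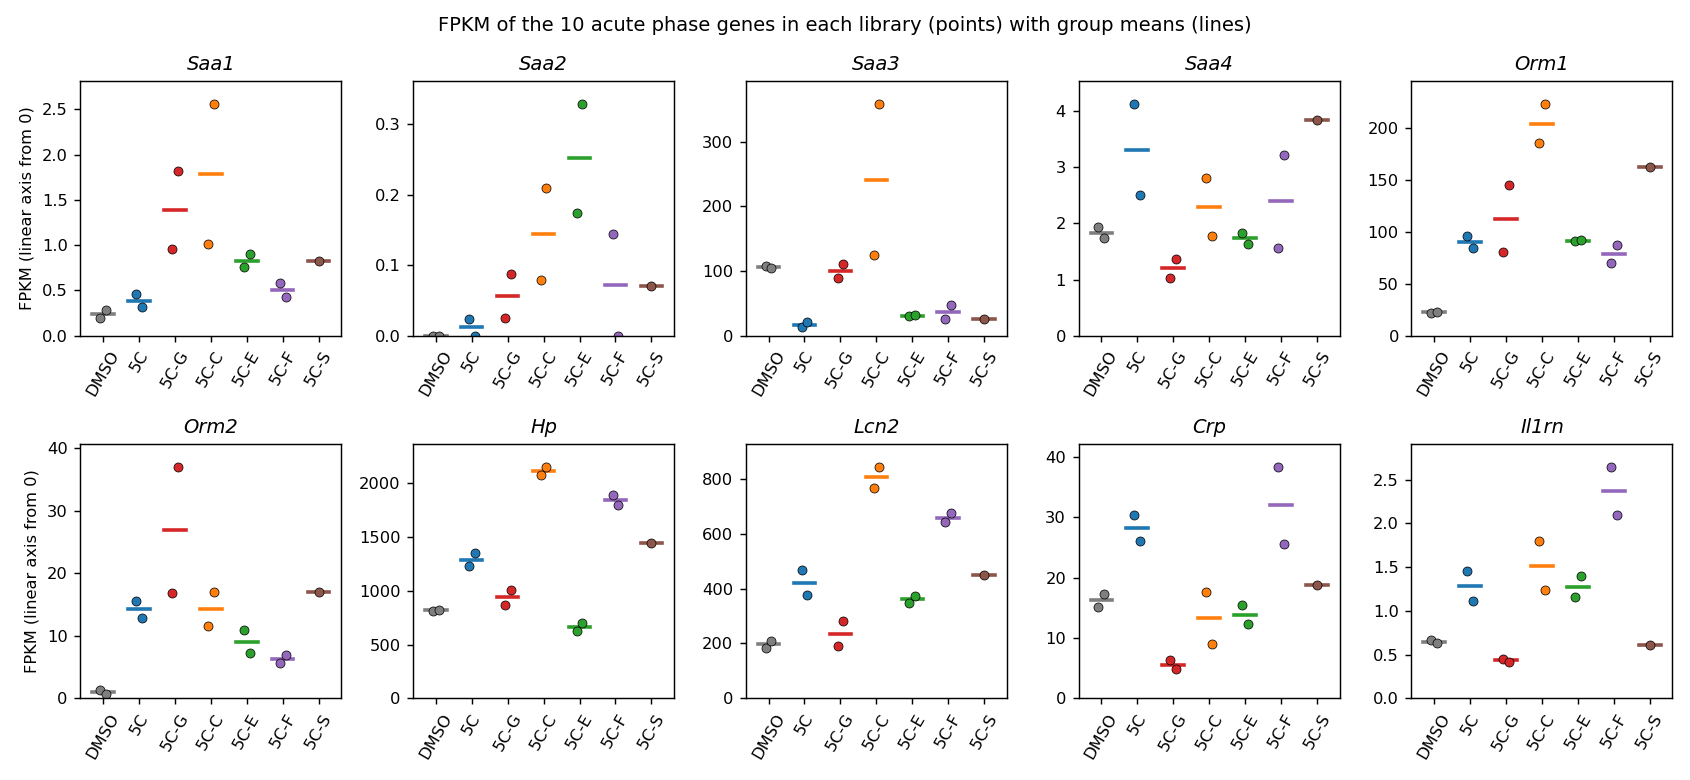
FPKM of the 10 members (linear axes from 0) in the 7 groups, with each library as a point and the group mean as a line. Saa3 was at 13.2 and 21.1 FPKM in 5C and at 125 and 358 in 5C-C, while Orm1 and Orm2 were lowest in the 2 DMSO libraries.

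Saa3, the amyloid A form that macrophages and other cells outside the liver parenchyma also make, showed the widest range of the family. It stood at 107 and 105 FPKM in DMSO, 13.2 and 21.1 in 5C, 88.6 and 111 in 5C-G, 125 and 358 in 5C-C, 29.8 and 32.4 in 5C-E, 25.8 and 47.4 in 5C-F and 26.0 in 5C-S. Both 5C libraries lay below every other library, and the 5C-C libraries above all of them, although the 2 libraries of 5C-C lay further apart than those of any other group. Saa3 fell in 5C against DMSO (log2 fold change -2.70 ± 0.39 SE, adjusted p = 0.000174). Against 5C it rose on removal of C (3.99 ± 0.41, adjusted p = 7.52e-06) and on removal of G (2.69 ± 0.39, adjusted p = 0.000128). The values after removal of F (1.18 ± 0.37, adjusted p = 0.0523) and of E (0.79 ± 0.37, adjusted p = 0.342) did not pass, although the former was called with every gene kept, on the 2 groups alone (adjusted p = 0.0173) and without library A of 5C-F (1.53, adjusted p = 0.0423). The rise on removal of C was 3.02 without library B of 5C-C and 4.59 without library A, and was called in every fit.

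The macrophage markers moved with Saa3 in part. From DMSO to 5C, 9 of the 10 markers fell. Against 5C, 9 rose on removal of G, 8 on removal of F, 5 on removal of C and 0 on removal of E. All of these comparisons share the 5C libraries and so are not independent. Of 5 neutrophil markers that could be tested, only S100a8, singled out after its values were seen and at 0.563 to 4.25 FPKM, was called in 5C against DMSO or on any removal from 5C. It fell in 5C against DMSO (-2.23 ± 0.63) and rose on removal of G (2.07 ± 0.63) and of C (2.50 ± 0.64). Its partner S100a9 was at 0 in most libraries. The Saa3 levels of 5C-G and DMSO were side by side (99.9 ± 16.0 and 106 ± 1.87 FPKM, SD, n = 2), with a log2 difference of -0.01 ± 0.37 (adjusted p = 1). In 5C-C the order parted: Saa3 was higher than in DMSO (1.29 ± 0.37, adjusted p = 0.0111) while 9 macrophage markers were lower. That rise rested on library B of 5C-C, without which it was 0.33 (adjusted p = 0.473). It was also lost without either DMSO library (adjusted p = 0.0617 and 0.0647), in limma, on the 2 groups alone and with an offset fitted on GC content and length (0.70, adjusted p = 0.11). The part of the macrophage markers and of S100a8 in the Saa3 levels was not tested.

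**Figure D2:**
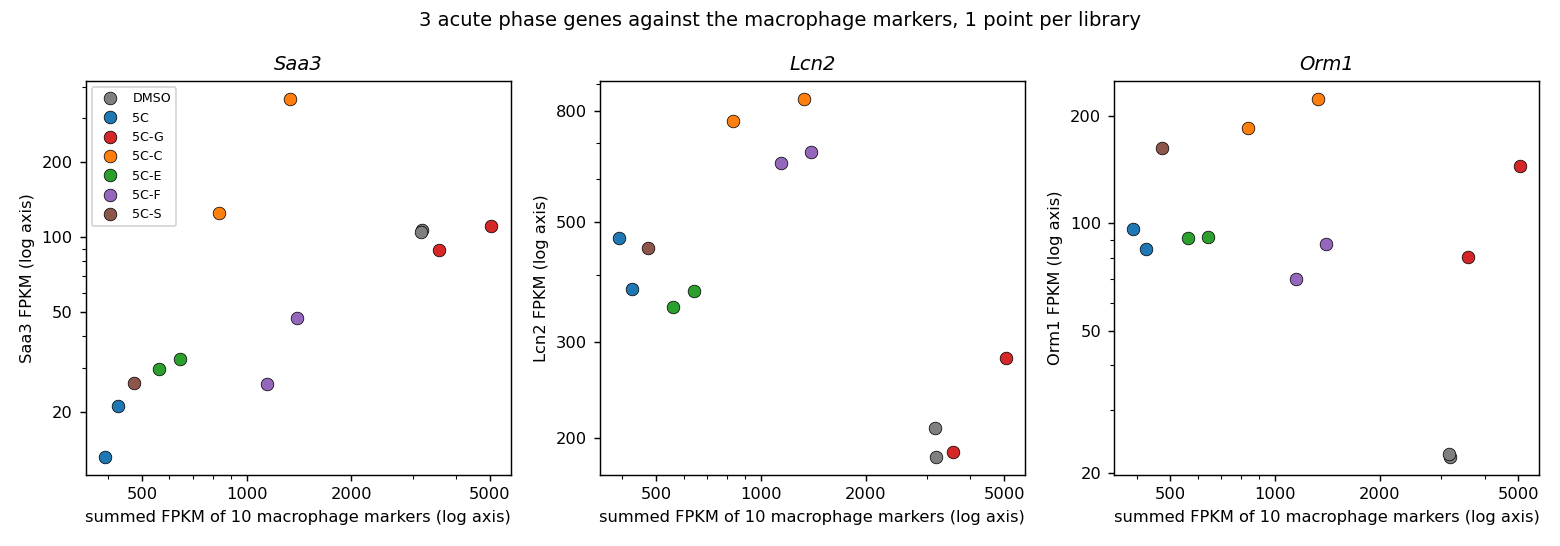
FPKM of Saa3, Lcn2 and Orm1 (y, log axis) against the summed FPKM of 10 macrophage markers (x, log axis), 1 point per library, coloured by group. Saa3 was lowest where the marker sum was lowest (391 and 426 in 5C) but highest in 5C-C at sums of 834 and 1329, and Lcn2 was low in DMSO and 5C-G, where the sums were 3164 and above.

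Saa1 and Saa2, the pair that makes up most circulating amyloid A in the acute phase in mice, were expressed at very low levels in all cultures. Saa1 ran from 0.199 FPKM in a DMSO library (18 counts) to 2.56 in library B of 5C-C (289 counts). Its values were 0.199 and 0.285 in DMSO, 0.457 and 0.315 in 5C, 0.953 and 1.82 in 5C-G, 1.01 and 2.56 in 5C-C, 0.753 and 0.902 in 5C-E, 0.584 and 0.423 in 5C-F and 0.828 in 5C-S. The libraries of 5C-G and 5C-C lay above all others. Saa1 rose against 5C on removal of C (2.39 ± 0.56, adjusted p = 0.00334) and of G (2.01 ± 0.56, adjusted p = 0.0142). The call for G was lost without either 5C library (adjusted p = 0.0611 and 0.124), without library B of 5C-G (1.29, adjusted p = 0.223), and with the GC content and length offset (1.42, adjusted p = 0.0567). The call for C was lost without library B of 5C-C (1.55, adjusted p = 0.0783).

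Saa2 was at the limit of detection. Its counts were 0 and 0 in DMSO, 2 and 0 in 5C, 2 and 8 in 5C-G, 6 and 24 in 5C-C, 16 and 27 in 5C-E, 14 and 0 in 5C-F and 6 in 5C-S. With DMSO, whose libraries were both at 0, set at the floor of 3 counts per library, the mean level was at least 7.11-fold higher in 5C-E, 4.07-fold in 5C-C, 2.03-fold in 5C-F and 1.58-fold in 5C-G than in DMSO. These bounds rested on single libraries: that of 5C-C was 2.23-fold without library B, that of 5C-E was 4.93-fold without library B, and library B of 5C-F and library A of 5C-G were at or under the floor. The floor covers counting error only, and no Saa2 difference was called. Saa3 exceeded Saa1 per length in every library, by 28.8-fold in library A of 5C and by 540-fold in library A of DMSO.

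Saa4, the amyloid A protein that is secreted constitutively, moved otherwise than Saa1 and Saa3. It was at 1.94 and 1.73 FPKM in DMSO, 4.13 and 2.50 in 5C, 1.02 and 1.37 in 5C-G, 2.81 and 1.77 in 5C-C, 1.84 and 1.64 in 5C-E, 1.57 and 3.23 in 5C-F and 3.85 in 5C-S. The 5C-G libraries were the lowest, and the other groups overlapped their neighbours. Saa4 fell on removal of G (-1.31 ± 0.40, adjusted p = 0.0219), a call lost without library A of 5C (-0.93, adjusted p = 0.223) or of 5C-G (-1.04, adjusted p = 0.115). It was not called in the other comparisons against 5C or in 5C against DMSO (0.77 ± 0.39, adjusted p = 0.334).

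Orm1 and Orm2 encode the orosomucoids, also called alpha-1-acid glycoproteins, and both stood far above DMSO in every culture with compounds. Orm1 was at 22.1 and 22.6 FPKM in DMSO, 96.5 and 84.8 in 5C, 80.6 and 145 in 5C-G, 185 and 223 in 5C-C, 91.1 and 91.9 in 5C-E, 70.0 and 87.6 in 5C-F and 163 in 5C-S. The lowest library with compounds was thus above both DMSO libraries, and the 5C-C libraries were above all others. Compared with DMSO, it rose in 5C by 1.94 ± 0.26 on the log2 scale (adjusted p = 6.34e-05). Against 5C, Orm1 rose on removal of C (1.34 ± 0.25, adjusted p = 0.000572), which with the GC content and length offset was 0.83, under the threshold of 1 (adjusted p = 0.004). Removal of G gave 0.48 ± 0.25 (adjusted p = 0.17), which was -0.18 without library B of 5C-G.

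Orm2 was the member with the largest change in 5C against DMSO. It was at 1.38 and 0.745 FPKM in DMSO, 15.6 and 12.9 in 5C, 16.9 and 37.0 in 5C-G, 11.6 and 17.1 in 5C-C, 10.9 and 7.23 in 5C-E, 5.67 and 6.88 in 5C-F and 17.0 in 5C-S. No library with compounds overlapped DMSO, and the 5C-F libraries were the lowest of those with compounds. In 5C it rose by 3.65 ± 0.44 over DMSO (adjusted p = 2.58e-05). Removal of G gave a further 1.09 ± 0.38 over 5C (adjusted p = 0.0406), which rested on library B of 5C-G: without it the value was 0.24 (adjusted p = 0.763), and the call was also lost without either 5C library (adjusted p = 0.124 and 0.229), without TMM scaling, in limma and with the GC content and length offset. Removal of F gave -1.08 ± 0.38 (adjusted p = 0.0785), called only in fits with every gene kept, on the 2 groups alone or with that offset (-1.34, adjusted p = 0.0153). The ratio of Orm1 to Orm2 FPKM was 16.1 and 30.3 in DMSO, 6.20 and 6.58 in 5C, 4.76 and 3.91 in 5C-G, and between 8.35 and 16.0 elsewhere.

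**Figure D3:**
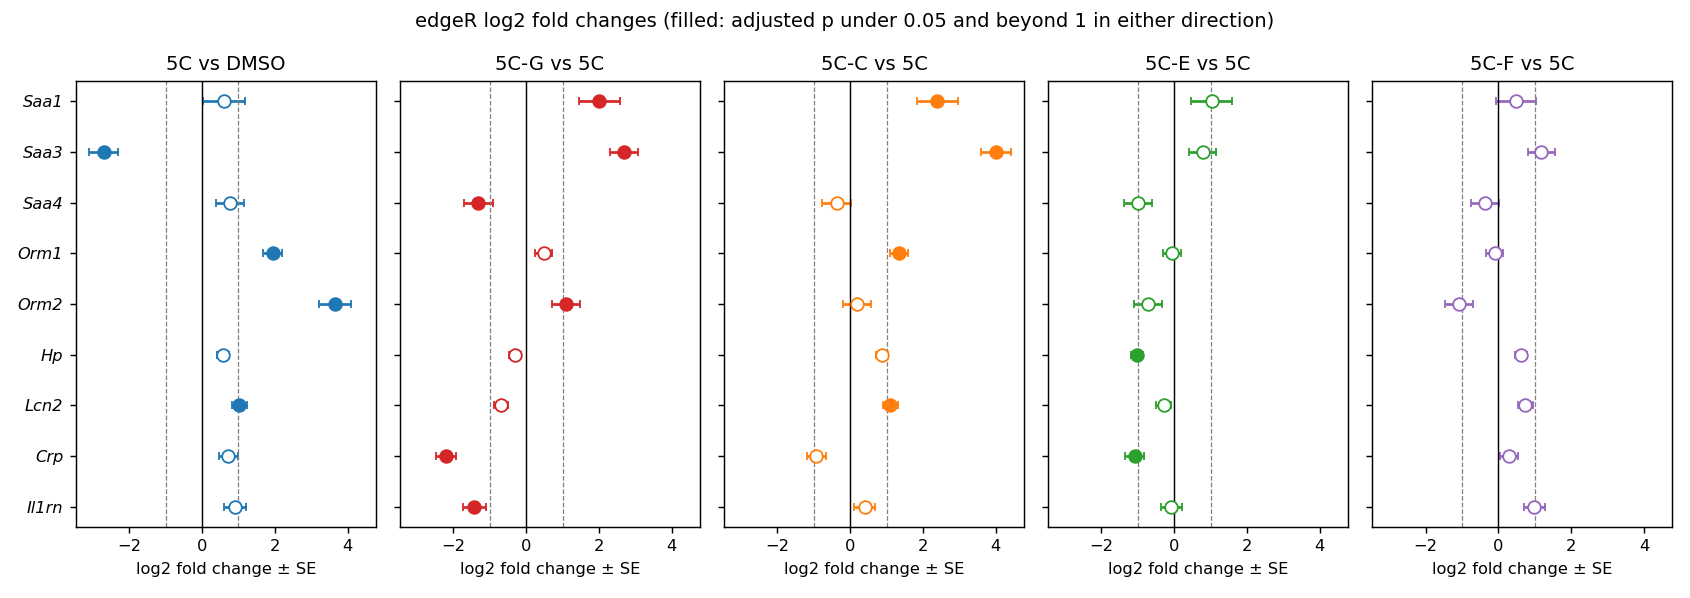
Log2 fold changes (x, points) with their SE (bars) for 9 members in 5C against DMSO and in 4 removal groups against 5C, from the edgeR test over 13 libraries, with dashed lines at -1 and 1. Filled points were called, and Saa2 is left out because DMSO and 5C were at the floor. Saa3 was -2.70 in 5C against DMSO and 3.99 in 5C-C against 5C, and no point was filled for 5C-F.

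Hp was the most abundant member and stood among the 35 genes with the highest FPKM in every library. It was at 813 and 823 FPKM in DMSO, 1229 and 1350 in 5C, 864 and 1011 in 5C-G, 2073 and 2152 in 5C-C, 627 and 703 in 5C-E, 1886 and 1800 in 5C-F and 1445 in 5C-S. No 2 groups overlapped, with 5C-C highest and 5C-E lowest. Its changes against 5C were smaller than those of Saa3 on removal of G, C and F, but not on removal of E. Hp fell on removal of E (-1.03 ± 0.16, adjusted p = 0.00145), at the edge of the fold threshold: it was between -0.96 and -0.91 without TMM, in limma, and without library B of 5C or library A of 5C-E. Removal of C gave 0.88 ± 0.16 (adjusted p = 0.000617), under the threshold of 1, and this value was -0.03 (adjusted p = 0.903) with the GC content and length offset. Removal of G gave -0.32 ± 0.16 (adjusted p = 0.172), which with that offset was -0.996 (adjusted p = 8.87e-05), just under the threshold. Removal of F gave 0.61 ± 0.16 (adjusted p = 0.0253), which was 0.19 with the offset. For 5C against DMSO the value was 0.58 ± 0.16 (adjusted p = 0.0401).

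Lcn2 was next in abundance and lay among the 270 genes with the highest FPKM in every library. It was at 185 and 209 FPKM in DMSO, 467 and 376 in 5C, 189 and 281 in 5C-G, 767 and 843 in 5C-C, 348 and 373 in 5C-E, 643 and 674 in 5C-F and 448 in 5C-S. DMSO and 5C-G overlapped at the bottom, and 5C-C and 5C-F lay above the rest without overlapping each other. Lcn2 rose in 5C against DMSO (1.02 ± 0.20, adjusted p = 0.00367), a call lost without library A of DMSO (0.94, adjusted p = 0.0844) or of 5C (0.88, adjusted p = 0.0759). It rose on removal of C (1.10 ± 0.20, adjusted p = 0.000592), but the value was 0.20 (adjusted p = 0.363) with the GC content and length offset, and between 0.93 and 0.99 without TMM scaling, in limma and without library B of 5C. Removal of G gave -0.69 ± 0.20 (adjusted p = 0.0192), which passed the fold threshold with the offset (-1.38, adjusted p = 6.80e-06) and without library B of 5C-G (-1.17).

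Fold changes followed GC content across genes in these comparisons. Over 19787 genes with a known transcript, Spearman's rho between log2 fold change and GC content, a description across genes that are not independent, was 0.41 for 5C-C and 0.35 for 5C-G against 5C. The transcripts of Hp (56.2% GC) and Lcn2 (54.0%) were the richest in GC among the members, and those of Il1rn (45.2%) and Crp (42.2%) the poorest. With the offset, Saa3 (48.0% GC, 3.53, adjusted p = 3.92e-06) and Saa1 (1.55, adjusted p = 0.0323) were the 2 members still called on removal of C. The part of GC content in these changes was not tested.

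**Figure D4:**
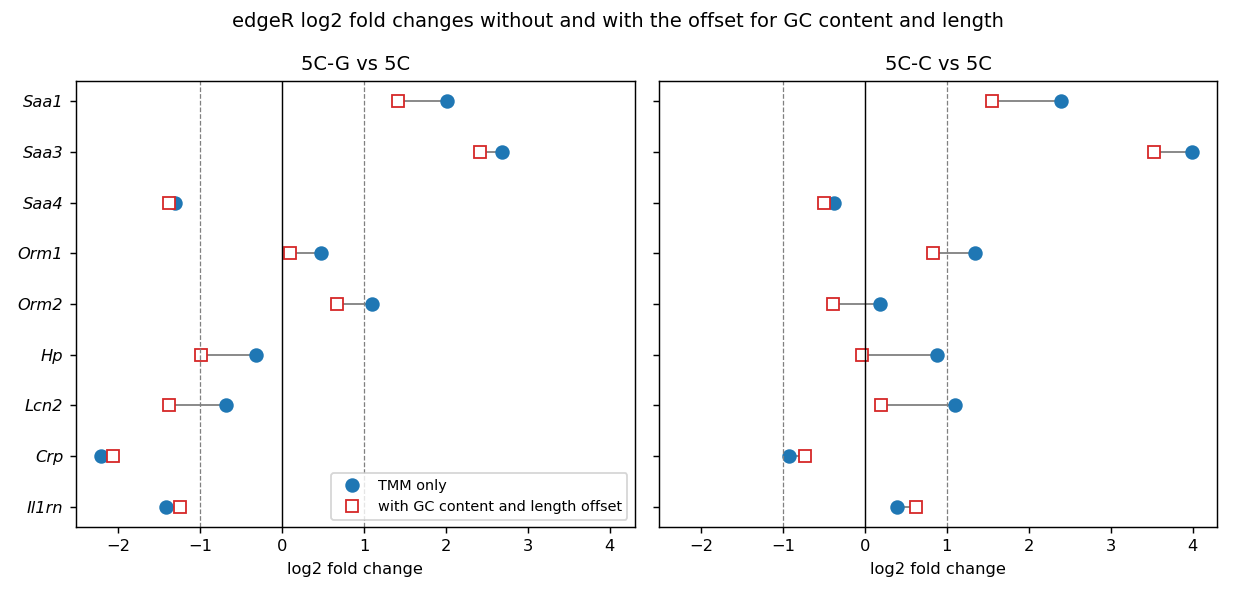
Log2 fold changes (x) of 9 members in 5C-G and 5C-C against 5C, as filled circles for the test with TMM scaling and as open squares with an added offset for GC content and length, with dashed lines at -1 and 1. In 5C-C, Lcn2 moved from 1.10 to 0.20 and Hp from 0.88 to -0.03, while Saa3 moved from 3.99 to 3.53.

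Crp and Il1rn shared their lowest group, 5C-G. Crp was at 15.2 and 17.4 FPKM in DMSO, 30.3 and 26.1 in 5C, 6.31 and 4.87 in 5C-G, 17.6 and 8.97 in 5C-C, 15.4 and 12.3 in 5C-E, 38.4 and 25.6 in 5C-F and 18.7 in 5C-S. The 5C-G libraries lay below all others, and 5C and 5C-F overlapped at the top. Crp fell on removal of G (-2.21 ± 0.27, adjusted p = 2.65e-05), which was between -2.35 and -2.11 whichever library of the 2 groups was left out. It also fell on removal of E (-1.09 ± 0.26, adjusted p = 0.0307), but this call was lost without any 1 of the 4 libraries (adjusted p from 0.0727 to 0.449), with library sizes only, in limma and with the GC content and length offset (-0.71, adjusted p = 0.106). Removal of C gave -0.93 ± 0.26 (adjusted p = 0.0104), under the fold threshold, which it passed without library A of 5C-C (-1.44), without TMM scaling (-1.09) and in limma. Hepatocyte markers also differed between these groups: their summed FPKM was 11013 and 10975 in 5C, 6868 and 8174 in 5C-G, 5086 and 4666 in 5C-C, 3686 and 3174 in 5C-E, and 21660 and 17272 in 5C-F, and their part in the Crp levels was not tested.

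Il1rn was low throughout, at 0.667 and 0.632 FPKM in DMSO, 1.45 and 1.12 in 5C, 0.455 and 0.420 in 5C-G, 1.80 and 1.24 in 5C-C, 1.16 and 1.39 in 5C-E, 2.65 and 2.09 in 5C-F and 0.614 in 5C-S. The 5C-G libraries were again the lowest and the 5C-F libraries the highest, without overlap with the next group. Il1rn fell on removal of G (-1.42 ± 0.31, adjusted p = 0.00285), by 1.24 to 1.63 on the log2 scale whichever of the 4 libraries was left out, but in limma on log2(FPKM + 1) it was -0.66, under the fold threshold. On that scale, which compresses low values, 10 of the 13 calls of Saa1, Saa4 and Il1rn over all comparisons were lost, and 11 of the 51 calls of the other members. Removal of F gave 0.99 ± 0.29 (adjusted p = 0.0403), just under the fold threshold (1.01 in DESeq2, adjusted p = 0.0129), and 5C against DMSO gave 0.91 ± 0.30 (adjusted p = 0.0915).

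The removals were then compared with each other, since a call in one and not in another is no difference between them. Between 5C-G and 5C-F, 5 members were called (8.03% of all genes, 3.76% higher and 4.27% lower): Crp (-2.50 ± 0.28, adjusted p = 1.59e-05), Il1rn (-2.41 ± 0.31) and Lcn2 (-1.43 ± 0.21) were lower in 5C-G, and Orm2 (2.18 ± 0.39) and Saa3 (1.51 ± 0.37, adjusted p = 0.0114) were higher. The Saa3 call was lost without library B of 5C-G (1.17, adjusted p = 0.107) or library A of 5C-F (1.11, adjusted p = 0.208) and in limma. Between 5C-G and 5C-C, 5 were called (7.36% of all genes, 4.14% higher and 3.21% lower), all lower in 5C-G: Il1rn (-1.82 ± 0.31), Lcn2 (-1.79 ± 0.21), Saa3 (-1.31 ± 0.37, adjusted p = 0.0284), Crp (-1.28 ± 0.27) and Hp (-1.19 ± 0.16). The Saa3 difference was -0.39 (adjusted p = 0.548) without library B of 5C-C, and its call was also lost without library A of 5C-G (adjusted p = 0.202), in DESeq2, in limma and on the 2 groups alone. Crp was -0.82 without library A of 5C-C and was not called in limma on log2(FPKM + 1), and Hp was -0.96 with the GC content and length offset.

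Between 5C-C and 5C-E, 4 members were called (13.7% of all genes, 6.33% higher and 7.34% lower), all higher in 5C-C: Saa3 (3.21 ± 0.40, adjusted p = 0.000207), Hp (1.90 ± 0.17), Lcn2 (1.40 ± 0.21) and Orm1 (1.40 ± 0.25). With the offset Lcn2 was 0.56 and Orm1 0.74, both under the fold threshold, and Saa3 was 2.57. In this comparison and the next, the size of the Saa3 difference rests on 5C-C libraries that lay far apart (125 and 358 FPKM). Between 5C-C and 5C-F, 5 were called (10.2% of all genes, 4.92% higher and 5.26% lower): Saa3 (2.81 ± 0.39, adjusted p = 0.000103), Saa1 (1.90 ± 0.55, adjusted p = 0.0228), Orm1 (1.45 ± 0.25) and Orm2 (1.27 ± 0.38) were higher in 5C-C, and Crp (-1.22 ± 0.26) was lower. The calls of Saa1 and Orm2 were lost without library B of 5C-C or without either 5C-F library, in limma and with the offset, and that of Crp without library B of 5C-C or library A of 5C-F and with the offset (-0.97).

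Between 5C-F and 5C-E, 4 were called (8.74% of all genes, 4.45% higher and 4.29% lower), all higher in 5C-F: Hp (1.64 ± 0.17, adjusted p = 4.88e-06), Crp (1.38 ± 0.26), Il1rn (1.07 ± 0.29, adjusted p = 0.0192) and Lcn2 (1.04 ± 0.20), of which Hp alone was called with the offset. The call of Il1rn was also lost without either 5C-E library or library A of 5C-F, that of Crp without library A of 5C-F, and that of Lcn2 without library A of 5C-E. Lcn2 (0.87) and Il1rn (0.89, adjusted p = 0.0509) were also under the fold threshold with library sizes only, and both calls were lost in both limma fits. Between 5C-G and 5C-E, 4 were called (9.31% of all genes, 5.19% higher and 4.12% lower): Saa3 (1.90 ± 0.38, adjusted p = 0.00239) and Orm2 (1.81 ± 0.38) were higher in 5C-G, and Il1rn (-1.34 ± 0.31) and Crp (-1.11 ± 0.27) were lower. The Orm2 call was lost without library B of 5C-G or of 5C-E, and the Crp call without library B of 5C-G or library A of 5C-E.

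Set against DMSO, which shares the removal libraries with the comparisons above, 5C-C had 7 members called, all higher (22.1% of all genes called, 10.4% higher and 11.7% lower). These were Orm2 (3.84 ± 0.45), Orm1 (3.28 ± 0.27), Saa1 (2.99 ± 0.59), Lcn2 (2.13 ± 0.21), Hp (1.46 ± 0.17), Il1rn (1.31 ± 0.30) and Saa3. With the GC content and length offset Hp was 0.63 and Saa3 0.70, under the fold threshold. Also with the offset, Orm2 was 3.14, Orm1 2.65, Saa1 2.11, Il1rn 1.39 and Lcn2 1.25. 5C-F had 7 called (7.4% of all genes, 3.18% higher and 4.22% lower), namely Orm2 (2.57 ± 0.44), Il1rn (1.90 ± 0.30), Orm1 (1.84 ± 0.26), Lcn2 (1.77 ± 0.21), Hp (1.20 ± 0.16) and Crp (1.01 ± 0.26) higher and Saa3 (-1.52 ± 0.37, adjusted p = 0.0118) lower. The calls of Saa3 and Crp were each lost without either DMSO library or library A of 5C-F, with Saa3 between -1.54 and -1.16, and Hp (0.85) and Crp (0.74) were under the fold threshold with the offset. Crp was also at 0.98 with library sizes only, and its call was lost in both limma fits (adjusted p = 0.0707 and 0.0718).

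5C-G had 4 members called against DMSO (5.83% of all genes, 3.11% higher and 2.72% lower): Orm2 (4.75 ± 0.46, adjusted p = 1.26e-05), Saa1 (2.61 ± 0.58, adjusted p = 0.0101) and Orm1 (2.42 ± 0.26) were higher and Crp (-1.49 ± 0.27, adjusted p = 0.00355) was lower. The Saa1 call was lost without either DMSO library or library B of 5C-G (adjusted p from 0.0697 to 0.151). 5C-E had 3 called (6.09% of all genes, 2.41% higher and 3.68% lower), with Orm2 (2.93 ± 0.44) and Orm1 (1.89 ± 0.26) higher and Saa3 (-1.91 ± 0.38, adjusted p = 0.00267) lower. Both orosomucoids were thus higher than DMSO in 5C and in all 4 tested removal groups, and they were called in every fit, including those without 1 library. These comparisons all share the DMSO libraries, so their agreement is not independent.

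With 1 library, 5C-S could only be set beside 5C without a test. On log2 CPM (counts scaled to library size), 3 members differed from the 5C mean by more than 1, as did 15.4% of all genes (8.1% above, 7.35% below): Saa1 (1.06) and Saa2, which had 6 counts, were above it and Il1rn (-1.06) below. Against single 5C libraries these differences were 0.83 and 1.30 for Saa1 and -1.23 and -0.89 for Il1rn. Orm1 was 0.83 above the 5C mean and Crp 0.60 below it.

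The pathway lists are counted against the shares of all genes called, which were 4.55% in 5C against DMSO and 13.1%, 20.2%, 1.96% and 4.84% on removal of G, C, E and F. The alternative fits, among them the GC content and length offset, were examined for the members only. Calls of all other listed genes and markers therefore rest on the main fit. Messenger RNA of the main cytokines of the acute phase was scarce. Il1b was at 0 FPKM in every library but one (0.0573 in DMSO) and was not tested. Il6 ran from 0.0425 FPKM in a 5C-F library to 1.73 in a 5C-C library. Il1a was also near the floor, at 0.121 and 0.0330 FPKM in 5C and 0.904 and 0.444 in 5C-C. Of the 8 cytokines of the list that could be tested, 3 rose on removal of C, namely Il1a (3.24 ± 1.11), Il6 (1.76 ± 0.63, adjusted p = 0.0366) and Il33 (1.29 ± 0.24), and 2 fell on removal of F, Il6 (-2.31 ± 0.69, adjusted p = 0.0413) and Il33 (-1.24 ± 0.25). On removal of G only Il33, an alarmin, was called (-2.29 ± 0.26), on removal of E only Il33 as well (1.08 ± 0.24), and in 5C against DMSO none of the 8, Il6 being at 0.73 ± 0.64 and Il1a at -3.52 ± 1.11 (adjusted p = 0.0763).

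Of the 12 receptors of these cytokines, 3 fell on removal of C, where 10.5% of all genes fell, Il1rap (-1.68 ± 0.25), the interleukin 6 receptor Il6ra (-1.17 ± 0.20) and Lifr (-1.03 ± 0.18), and none rose. The signalling chain Il6st was between 21.4 and 49.8 FPKM and was called in none of the 5 comparisons. Il1r1, which binds interleukin 1 and its antagonist, fell on removal of F (-1.49 ± 0.19, adjusted p = 0.000309), with Il22ra1. Il10rb fell in 5C against DMSO (-1.10 ± 0.17) and rose on removal of G (1.07 ± 0.17), and no receptor was called on removal of E.

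Among 22 transcription factors and feedback regulators, removal of C, which called 20.2% of all genes, gave 6 higher and 2 lower. Cebpd (1.84 ± 0.24, adjusted p = 5.89e-05), Socs1 (1.83 ± 0.47), the STAT3 feedback inhibitor Socs3 (1.71 ± 0.27) and Cebpb (1.48 ± 0.28) led the rise, and the glucocorticoid receptor Nr3c1 fell (-1.48 ± 0.23, adjusted p = 0.000171). Cebpb was at 118 and 95.3 FPKM in 5C, 207 and 323 in 5C-C and 260 and 234 in 5C-G. Socs1 was low, at 0.225 and 0.470 FPKM in 5C and 0.966 and 1.24 in 5C-C. Removal of G raised Cebpb (1.34 ± 0.28, adjusted p = 0.00232) and Socs1 (2.04 ± 0.47) and lowered Hnf4a (-1.05 ± 0.18), a factor of hepatocyte identity, while Cebpd gave 0.86 ± 0.24 and Socs3 0.00 ± 0.26. Socs3 was the only factor of the list called on removal of E (1.16 ± 0.26), none was called on removal of F, and Cebpa fell in 5C against DMSO (-1.04 ± 0.19). Stat3 mRNA was called in none of the 5 comparisons and lay between 17.8 and 39.5 FPKM.

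Other positive acute phase proteins, a list of 28 genes, were called in both directions. Between 5C and DMSO 4 rose and none fell (4.55% of all genes called): A2m (2.30 ± 0.20), the macroglobulin protease inhibitor, Steap4 (1.23 ± 0.23), Fgl1 (1.18 ± 0.17) and the fibrinogen chain Fgg (1.02 ± 0.17). Removal of C (20.2% of all genes called) raised 7, among them Ptx3 (2.12 ± 0.33), A2m (2.11 ± 0.20) and the endotoxin receptor Cd14 (1.71 ± 0.21), and lowered Steap4 (-2.35 ± 0.23). Removal of G (13.1%) lowered 10, among them Steap4 (-2.04 ± 0.23), A2m (-1.85 ± 0.20), ceruloplasmin Cp (-1.67 ± 0.20) and the lipopolysaccharide carrier Lbp (-1.60 ± 0.16), and raised 2, Ptx3 and Hmox1, which were named after their values were seen. Removal of E (1.96%) and of F (4.84%) each raised 2 and lowered 3. The median log2 fold change of the list was 0.53 in 5C against DMSO, and on removal of G, C, E and F it was -0.77, 0.42, -0.49 and 0.07.

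Negative acute phase proteins are made in smaller amounts by the liver while the positive ones rise. Of 12 such genes, removal of E, which lowered 1.31% of all genes, lowered 6, led by Apoa2 (-2.71 ± 0.26), antithrombin Serpinc1 (-2.58 ± 0.21) and albumin Alb (-2.03 ± 0.20), and removal of C, which lowered 10.5% of all genes, lowered 3, Serpinc1 (-3.04 ± 0.21), Apoa2 (-2.30 ± 0.26) and Alb (-1.50 ± 0.19). Removal of F raised Apoa1 (1.66 ± 0.22) and the thyroxine carrier Ttr (1.02 ± 0.19) and lowered none, with Alb at 0.85 ± 0.19. Removal of G raised Apoa1 (1.63 ± 0.22) and lowered Serpinc1 (-1.81 ± 0.20), and Alb was at -0.99 ± 0.19. In 5C against DMSO only Serpinc1 was called (1.25 ± 0.20), and Alb was at -0.03 ± 0.19. Alb, Ttr and Apoa1 are also on the hepatocyte marker list, of whose 8 genes 4 fell on removal of E and 4 on removal of C, and whose summed FPKM was 11013 and 10975 in 5C against 3686 and 3174 in 5C-E. The part of hepatocyte content in the fall of the negative acute phase proteins was not tested.

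The genes most like each member were sought among 7378 genes with a mean of at least 5 FPKM, by Pearson's r of log2 CPM over the 13 libraries, which share their groups and so are not independent points. For Saa3 they were Anxa8 (0.95), Ptgr1 (0.94) and Ecm1 (0.92), and for Lcn2 they were Mettl7b (0.97), Mad2l2 (0.96) and Prdx6 (0.96). Hp was most like Mt1 (0.95), a metallothionein of the positive list, and Orm1 most like Gmpr (0.97), which was also second for Orm2 (0.88) after Wdsub1 (0.89). Crp was most like Mat1a and Abcb4 (0.97 each), genes of methionine and bile phospholipid handling in hepatocytes. Saa1 was most like Rpp25 (0.96), and the best matches of Saa4 (Ivd, 0.87) and Saa2 (Ephb4, 0.82) were weaker.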

How the data were processed

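Hepatocytes from CCl4-injured mice were cultured for 16 days and sequenced by the authors as paired-end reads, mapped to GRCm39 (the submitters' processing notes name featureCounts, Subread and DESeq2). The deposited counts were whole numbers per gene without normalization. The FPKM values deposited by the authors equalled those counts divided by a gene length and the column total, to within 0.2% for 27140 of 27141 genes. Columns named groups but not replicate numbers, and 0 columns were left unused. The members and gene lists were chosen with earlier results of these data known.

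All 13 libraries entered 1 edgeR 4.0.16 quasi-likelihood fit (TMM, filterByExpr with a minimum count of 10, 19884 genes, 6 residual degrees of freedom), with 15 comparisons and Benjamini-Hochberg adjustment over all genes within each. A call needed an adjusted p under 0.05 and a log2 fold change beyond 1. The ± values beside log2 fold changes are SE, computed as the change over the square root of F. The fit was tested on simulated data. For groups with 2 libraries each no exact test could reach significance, so the p-values come from the spread pooled over all groups. Named genes were all 10 members, up to 4 called genes per list and comparison with the largest change, and 11 fixed regulators and cytokines. The alternatives were library sizes only, DESeq2 1.42.0, no filter, at least 10 counts in every library, limma 3.58.1 on log2(FPKM + 1) and log2(FPKM + 0.1), the 2 groups alone, leaving out each library and, added after seeing the data, an offset fitted per library on GC content and length (splines with 4 degrees of freedom on genes with a mean count of at least 50). Promoter windows came from RefSeq (GRCm38.p6), gene positions and coding sequences from GENCODE vM39 (GRCm39), which held 26905 of the gene IDs. Some genes that these rules would name are not reported here.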

Additional observations from a re-analysis of the deposited data

How the results depend on the processing

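Counts of members called, out of 10, stayed within 1.5 times the reported count under most alternatives, and the cause of each exception was not tested. In 5C-G against 5C the count was 2 in limma on log2(FPKM + 1). In 5C-C against 5C it was 2 with the GC content and length offset, which was chosen after seeing the data. In 5C-E against 5C it was 0 with library sizes only and in both limma fits, and 1 with the offset. In 5C-F against 5C it was 1 in DESeq2 and with the offset, and 2 with every gene kept or on the 2 groups alone. In 5C-E against DMSO it was 5 with every gene kept or on the 2 groups alone. With the offset it was 2 in 5C-C against 5C-E and in 5C-C against 5C-F, and 1 in 5C-F against 5C-E. It was 2 in 5C-F against 5C-E with library sizes only and in both limma fits, 3 in 5C-C against 5C-F in both limma fits, and 2 in 5C-G against 5C-C in limma on log2(FPKM + 1). On that scale 0 members of 5C-S went beyond 1, with Saa1 at 0.40 and Il1rn at -0.50.

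Leaving out each library in turn leaves 1 library in that arm, which is assumed to vary like the other groups. The count then ran from 3 to 4 in 5C against DMSO. Against 5C it ran from 3 to 5 for removal of G and of C and from 0 to 1 for E and F. Against DMSO it ran from 3 to 4 for 5C-G, 6 to 7 for 5C-C, 3 to 3 for 5C-E and 5 to 7 for 5C-F. Between removals it ran from 4 to 6 for C with E, 4 to 7 for G with F, 4 to 6 for G with C, 2 to 4 for F with E, 2 to 5 for C with F and 2 to 4 for G with E, and for 5C-S from 1 to 2.

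Signs turned only for members that were not called. In 5C-C against 5C, Orm2 was -0.0081 and -0.0098 in the limma fits on log2(FPKM + 1) and log2(FPKM + 0.1) and -0.39 with the offset, and Hp was -0.0345 with it. In 5C-E against 5C, Orm1 was 0.0136 with library sizes only, 0.0162 and 0.0164 in those limma fits and 0.0897 with the offset, and Il1rn 0.18 with it. Without 1 library, Orm1 ran from -0.18 to 0.90 in 5C-G against 5C, from -0.0993 to 0.0208 in 5C-E and from -0.23 to 0.0137 in 5C-F. Orm2 ran from -0.13 to 0.47 in 5C-C, Saa4 from -0.69 to 0.0081 in 5C-C and from -0.94 to 0.0272 in 5C-F, Il1rn from -0.22 to 0.10 in 5C-E, and Crp from -0.0749 to 0.59 in 5C-F. With library sizes only, the median of all genes shifted to -0.14 in 5C-G, -0.15 in 5C-C and -0.11 in 5C-F against 5C. Depth limited Saa2, which had at most 27 counts. No paired analysis was possible because the labels give DMSO and 5C different replicate numbers and the other groups none.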

Other observations

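Receptors and carriers that bind the acute phase proteins form a list of 12 genes, and several of them moved in 5C and its removals. In 5C against DMSO 4 of the 12 fell and none rose, where 4.55% of all genes were called. They were the IgG and pentraxin receptor Fcgr2b (-2.98 ± 0.19), the formyl peptide receptor Fpr2 (-2.90 ± 0.66), the haptoglobin-haemoglobin scavenger receptor Cd163 (-2.28 ± 0.28) and Tlr2 (-1.48 ± 0.24), which binds serum amyloid A. The same 4 genes rose on removal of G, where 13.1% of all genes were called, by 3.04 ± 0.19, 2.31 ± 0.65, 1.42 ± 0.28 and 1.08 ± 0.24. Both comparisons use the same 5C libraries, so a low level there enters both and they are not independent. Fcgr2b was at 20.7 and 22.3 FPKM in DMSO, 2.77 and 2.98 in 5C and 20.4 and 22.5 in 5C-G, so that DMSO and 5C-G overlapped and 5C lay far below both. All 4 are expressed by macrophages, whose markers moved the same way in these 2 comparisons, and the part of those cells was not tested.

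Removal of C, where 20.2% of all genes were called, raised Fcgr2b (1.84 ± 0.18) and the lipocalin 2 receptor Slc22a17 (1.07 ± 0.30, adjusted p = 0.0104) and lowered Il1rap (-1.68 ± 0.25), Tlr4 (-1.33 ± 0.23) and the endocytic receptor Lrp2 (-1.28 ± 0.24). Slc22a17 was at 2.80 and 1.95 FPKM in 5C and 3.43 and 5.41 in 5C-C. Removal of E raised Fcgr2b alone (1.08 ± 0.18), and removal of F raised Fcgr2b (1.50 ± 0.18) and lowered Il1r1 and Lrp2 (-1.37 ± 0.24). Adjusted p-values of these calls, from edgeR's quasi-likelihood test, were at most 0.0149.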
